A study of Mus musculus with 12 samples.

Results

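The 10 genes described here, Fos, Fosb, Jun, Junb, Jund, Egr1, Ier2, Ier3, Atf3 and Dusp1, were taken by symbol from the deposited expression table, and 10 of 10 were found among its 34327 genes. They are immediate early genes and subunits of the transcription factor AP-1. They were measured by RNA-seq of polyadenylated RNA in bone marrow-derived macrophages (BMDMs), that is, wild-type C57BL/6 marrow cells (the labels; C57BL/6J in the methods of the study) grown into macrophages with medium conditioned by L929 cells, a fibroblast line that secretes the macrophage growth factor CSF1. The 12 libraries fall into 6 conditions of 2 libraries each. BMDMs were cultured on tissue culture (TC) plates, in low-collagen gels (rat tail collagen I at 2 mg/ml) or in high-collagen gels (7 mg/ml), and each culture was left untreated or given the type 2 cytokine IL-4 (20 ng/ml), for 24 hours by the labels. No source states whether the 2 libraries of a condition came from separate mice or cultures, so the p-values below measure only the spread between these libraries.

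Immediate early genes are transcribed within minutes of a stimulus without new protein synthesis, through transcription factors such as SRF and CREB that already sit in the cell and are switched on by MAP kinases and calcium or cAMP signalling. Their mRNAs are short-lived, so a steady level after a day of culture reflects both continued synthesis and decay. Fos, Fosb, Jun, Junb and Jund encode subunits of AP-1, a family of leucine zipper dimers in which Fos proteins must pair with a Jun protein, whereas Jun proteins can pair with each other. Egr1 is a zinc finger transcription factor, Ier2 and Ier3 are small response proteins, Atf3 is a stress-responsive leucine zipper factor, and Dusp1 is the phosphatase that switches off p38 and JNK and so limits the same pathway. In macrophages these genes respond to growth factors, adhesion and microbial products.

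The 10 genes share a compact structure. In the GENCODE annotation of GRCm38, the longest coding transcript of the 10 genes spanned a median of 3059.5 bases with a median of 2 exons, against 21365 bases and 9 exons over 10992 genes with a mean of at least 1 TPM (the unit of the table, the share of a gene's transcripts among all transcripts of a library, with transcript length corrected for and an equal total in each library). A span of at most 5000 bases was found for 7 of the 10 and for 12.3% of these genes. Jun (chr4:95049034-95052222, minus strand), Jund (chr8:70698949-70700616, plus strand) and Ier2 (chr8:84661331-84662852, minus strand) have a single exon each, as does the Junb transcript described here. The pentamer ATTTA, the core of AU-rich elements found in many short-lived mRNAs, occurred in the 3′ UTR of 9 of the 10, with Ier2 as the exception, and in 68.6% of the comparison genes. At least 3 copies were found in 5 of the 10 (37.3% of the comparison genes), and the longer form TTATTTATT in Fos (1 copy) and Dusp1 (2 copies), against 7.84%. A pentamer match is a description of the sequence and not a measured site. Words of 31 bases were shared with transcripts of other genes by 0.031% of the Fosb transcript and by none of the other 9, so reads of these genes could seldom be taken for those of a relative.

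Promoters of 8 of the 10 genes were found in RefSeq (GRCm38.p6), all but those of Egr1 and Ier2. The window listed for Jund (chr8:70697489-70697738, plus strand) lies upstream of the GENCODE start of Jund (chr8:70698949) and does not adjoin it. It is counted among the 8 below, but it is not the sequence next to the Jund transcript described above. The 250 bases before the start site are shown for Fos (chr12:85473640-85473889, plus strand) and Dusp1 (chr17:26508473-26508722, minus strand), which IL-4 lowered together in each culture, and for Jun (chr4:95052223-95052472, minus strand) and Junb (chr8:84978749-84978998, minus strand), whose levels went opposite ways between plates and gels. Capitals mark TGACGTCA (the cAMP response element), its first 5 letters TGACG alone, the variant TGACATCA known from the Jun promoter, and TATAAA.
Fos: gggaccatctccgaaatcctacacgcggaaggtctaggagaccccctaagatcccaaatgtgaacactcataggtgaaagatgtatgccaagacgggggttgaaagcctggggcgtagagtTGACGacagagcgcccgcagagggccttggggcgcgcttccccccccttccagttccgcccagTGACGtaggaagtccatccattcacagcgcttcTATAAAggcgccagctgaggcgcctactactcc
Dusp1: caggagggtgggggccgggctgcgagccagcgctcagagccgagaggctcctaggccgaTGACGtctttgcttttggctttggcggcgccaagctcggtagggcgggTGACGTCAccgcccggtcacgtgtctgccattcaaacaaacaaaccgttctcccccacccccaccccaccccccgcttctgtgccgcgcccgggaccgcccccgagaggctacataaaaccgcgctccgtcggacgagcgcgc
Jun: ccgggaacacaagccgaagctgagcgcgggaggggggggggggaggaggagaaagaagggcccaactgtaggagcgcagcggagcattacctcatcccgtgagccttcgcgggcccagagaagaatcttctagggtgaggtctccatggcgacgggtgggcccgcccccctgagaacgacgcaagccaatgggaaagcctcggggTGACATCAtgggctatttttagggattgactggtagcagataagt
Junb: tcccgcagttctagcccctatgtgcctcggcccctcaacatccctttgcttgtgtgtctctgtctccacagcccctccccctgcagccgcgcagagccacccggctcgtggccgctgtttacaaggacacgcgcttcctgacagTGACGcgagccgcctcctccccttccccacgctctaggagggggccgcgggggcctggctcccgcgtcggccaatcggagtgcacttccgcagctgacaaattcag
Both strands were searched in windows that also took in the 50 bases after the start. TGACGTCA, which contains TGACG, was found in 1 of the 8 (Dusp1, 143 bases before the start) and in 1.79% of 32851 RefSeq promoters of the same length. TGACG was found in 5 of the 8 (Fos, Fosb, Junb, Atf3 and Dusp1) against 20.8%, and TGACATCA in 1 (Jun, 45 bases before the start) against 3.62%. TATAAA was found in 2 (Fos, 33 bases before the start, and Junb, at the RefSeq start itself) against 13.6%. That RefSeq start of Junb lies upstream of its GENCODE start (chr8:84978718, minus strand), so its TATAAA lies before the GENCODE start. The EGR site, searched as GCGGGGGCG or GCGTGGGCG, was found in 1 (Fosb) against 3.47%. No match was found in the 8 windows for the AP-1 site TGACTCA or TGAGTCA (5.20% of promoters), the STAT6 site (TTC and GAA with any 4 bases between, 6.95%) or the CArG box bound by SRF (1.63%), which says only that these letters are not in these windows.

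The libraries were alike in the number of genes at 1 TPM or more (11543 to 11910). Since TPM hold no depth, how many reads stand behind a value is unknown. All 8 macrophage markers were expressed, with summed levels of 17540 to 53950 TPM. Marker sums of other cells were at most 3.01 TPM for fibroblasts, 1.95 for dendritic cells, 1.03 for lymphocytes, 1.38 for mast cells and basophils and 3.46 for eosinophils. The sum of neutrophil markers was higher, at 6.32 to 36.3 TPM, and is described below by condition. In bulk RNA, fewer cells that express a gene and less RNA of it per cell cannot be told apart. The gels and the plates were also harvested differently. Gels were lifted with forceps, left for minutes in the RNA reagent and broken up by pipetting, whereas plates were lysed directly, and the number of cells seeded differed as well. Culture, harvest and seeding therefore cannot be told apart in any comparison of gels with plates. Untreated and IL-4-treated BMDMs of one culture, and low- and high-collagen gels, were harvested by the same written steps. For gels, these steps let the time in the reagent and the pipetting depend on when the gel broke up. Gelation was given as a range of times. Whether handling times differed between low- and high-collagen gels is not stated, and their part in comparisons of the gels was not tested.

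By the median difference between replicates, the untreated high-collagen gels had the largest gap of the 6 conditions for these genes. With 2 libraries, which of them is the unusual one cannot be told. Replicate 2 of the untreated high-collagen gels was lower than replicate 1 for 9 of the 10, Fosb being the exception, with a median difference of -0.418 on the log2 scale, while the median over all 11857 genes was -0.007. The same count was 9 of 10 on plates with IL-4 and 1 of 10 on untreated plates, with smaller medians of -0.165 and 0.19, and 4 to 6 of 10 in the other 3 conditions. Many comparisons that use untreated high-collagen gels are given below with both libraries and then without replicate 2. The others are given with both libraries only.

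Fos and Fosb were expressed at very different levels, and both were higher in untreated gels than on untreated plates. Fos was at 36.2 and 40.1 TPM on untreated plates, 98.6 and 91.9 in untreated low-collagen gels and 107 and 67.9 in untreated high-collagen gels. With IL-4, Fos was at 11.01 and 8.73 TPM on plates, 12.6 and 17.3 in low-collagen gels and 15.1 and 17.6 in high-collagen gels. Every untreated library was above every library with IL-4, the 2 kinds of untreated gels overlapped, and so did the 2 kinds of gels with IL-4. Fosb, whose protein can replace Fos in AP-1, was at 0.433 and 0.650 TPM on untreated plates, 2.81 and 3.31 in untreated low-collagen gels and 0.965 and 1.26 in untreated high-collagen gels. With IL-4, it was at 0.171 and 0.263 TPM on plates, 0.716 and 0.826 in low-collagen gels and 0.304 and 0.272 in high-collagen gels. No neighbouring pair of conditions overlapped for Fosb, yet its mean over the 12 libraries (0.998 TPM) lay just under the minimum of 1 TPM for a test against plates, and it passed that minimum among the 8 gel libraries only through the untreated gels. Fosb is therefore left out of the counts of called genes, and its fold changes are given from a fit with no minimum level. The other 9 genes were at 1.30 TPM or more in every library, so the minimum did not decide whether they were tested.

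The 3 Jun genes divided a similar total in different ways. Jun was at 77.5 and 87.7 TPM on untreated plates, 33.6 and 37.5 in untreated low-collagen gels and 36.2 and 27.8 in untreated high-collagen gels. With IL-4, Jun was at 106 and 99.7 TPM on plates, 46.1 and 45.9 in low-collagen gels and 39.8 and 35.9 in high-collagen gels. All 4 plate libraries were above all 8 gel libraries, among which only low-collagen gels with IL-4 stood apart. Junb, which forms AP-1 dimers with a weaker activating effect than those of Jun at many sites, ran the other way, at 47.3 and 58.0 TPM on untreated plates, 115 and 103 in untreated low-collagen gels and 107 and 77.6 in untreated high-collagen gels. With IL-4, Junb was at 50.3 and 44.7 TPM on plates, 103 and 105 in low-collagen gels and 87.4 and 86.0 in high-collagen gels. All 8 gel libraries were above all 4 plate libraries, and IL-4 did not separate the libraries of any culture. Jund, the Jun gene least tied to stimulation, varied least of the 10, with a highest library 1.78 times the lowest. It was at 28.5 and 37.8 TPM on untreated plates, 36.8 and 28.1 in untreated low-collagen gels and 33.7 and 31.01 in untreated high-collagen gels. These 3 conditions overlapped. With IL-4, Jund was at 46.1 and 41.1 TPM on plates, 50.1 and 49.0 in low-collagen gels and 40.3 and 42.4 in high-collagen gels.

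Summed over Jun, Junb and Jund, the libraries ranged from 136 to 203 TPM, and the plate libraries (153 to 203) lay inside the range of the gels (136 to 200). Jun made up 47.8% to 53.8% of this sum on plates and 18.2% to 23.8% in gels, and Junb 24.1% to 31.6% on plates and 51.7% to 62.0% in gels. The ratio of Junb to Jun, both in TPM, was 0.448 to 0.661 on plates and 2.20 to 3.42 in gels. The ratio of Fos to Jun was 0.457 to 0.467 on untreated plates, 2.44 to 2.94 in untreated gels, 0.0875 to 0.104 on plates with IL-4 and 0.274 to 0.491 in gels with IL-4.

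**Figure D1:**
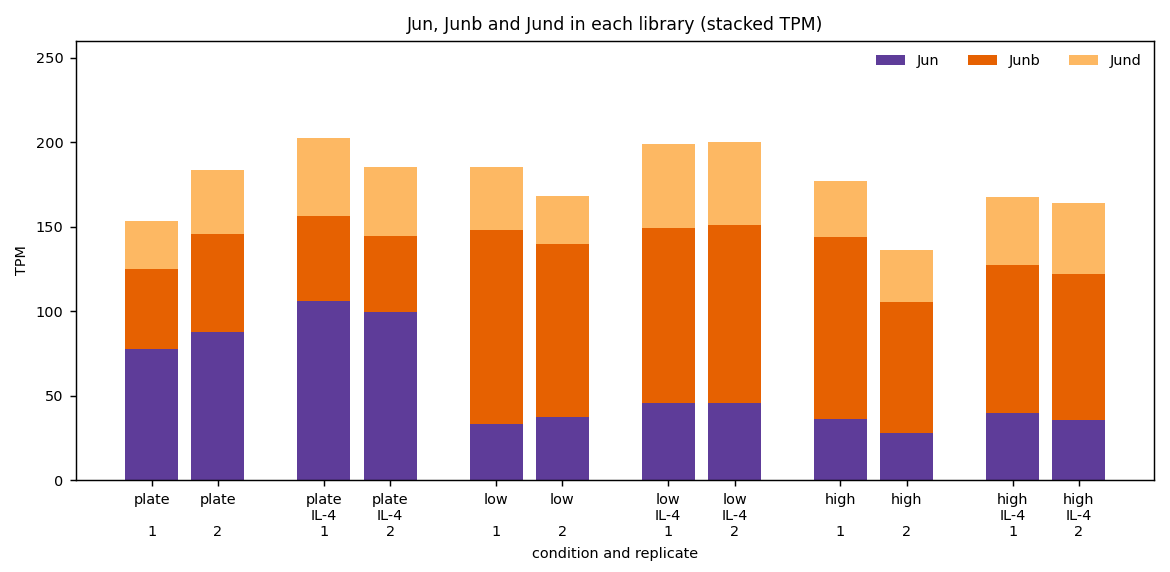
Levels of Jun, Junb and Jund in TPM, stacked, for each of the 12 libraries (replicates 1 and 2 of each condition; plate, TC plate; low and high, low- and high-collagen gels). Jun is the largest part of the bar on the 4 plates (47.8% to 53.8%) and Junb in the 8 gels (51.7% to 62.0%), while the whole bars stay between 136 and 203 TPM.

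Egr1 had the widest range of the 10, with a highest library 46.6 times the lowest. It was at 8.39 and 8.46 TPM on untreated plates, 60.5 and 60.2 in untreated low-collagen gels and 29.0 and 18.8 in untreated high-collagen gels. With IL-4, Egr1 was at 2.31 and 1.30 TPM on plates, 28.4 and 37.8 in low-collagen gels and 10.02 and 10.97 in high-collagen gels. Every gel library, treated or not, was above every plate library, and low-collagen gels with IL-4 overlapped untreated high-collagen gels while the other neighbours in the order stood apart. Ier2, a short-lived nuclear response protein, was at 34.7 and 44.1 TPM on untreated plates, 78.0 and 73.2 in untreated low-collagen gels and 62.4 and 43.3 in untreated high-collagen gels. With IL-4, Ier2 was at 19.7 and 15.9 TPM on plates, 40.9 and 48.8 in low-collagen gels and 30.5 and 26.8 in high-collagen gels. Untreated high-collagen gels, low-collagen gels with IL-4 and untreated plates overlapped in the order of Ier2, and the other conditions stood apart.

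Ier3 and Atf3 were highest with IL-4. Ier3, a regulator of cell survival that NF-κB also induces, was at 74.4 and 59.4 TPM on untreated plates, 94.8 and 96.7 in untreated low-collagen gels and 86.2 and 72.4 in untreated high-collagen gels. With IL-4, Ier3 was at 103 and 103 TPM on plates, 229 and 217 in low-collagen gels and 188 and 161 in high-collagen gels. Only untreated high-collagen gels and untreated plates overlapped. Atf3, which dimerises with Jun proteins and often acts as a repressor in macrophages, was at 84.5 and 92.4 TPM on untreated plates, 104 and 87.9 in untreated low-collagen gels and 93.8 and 92.4 in untreated high-collagen gels. With IL-4, Atf3 was at 211 and 201 TPM on plates, 159 and 151 in low-collagen gels and 173 and 168 in high-collagen gels. The untreated cultures overlapped for Atf3, and the 3 cultures with IL-4 stood apart from them and from each other. Dusp1 was at 52.0 and 60.7 TPM on untreated plates, 26.5 and 29.0 in untreated low-collagen gels and 27.5 and 18.4 in untreated high-collagen gels. With IL-4, Dusp1 was at 32.2 and 26.2 TPM on plates, 12.7 and 14.3 in low-collagen gels and 11.1 and 14.4 in high-collagen gels. Untreated plates were the highest and the gels with IL-4, which overlapped each other, the lowest, while plates with IL-4 overlapped the untreated gels.

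**Figure D2:**
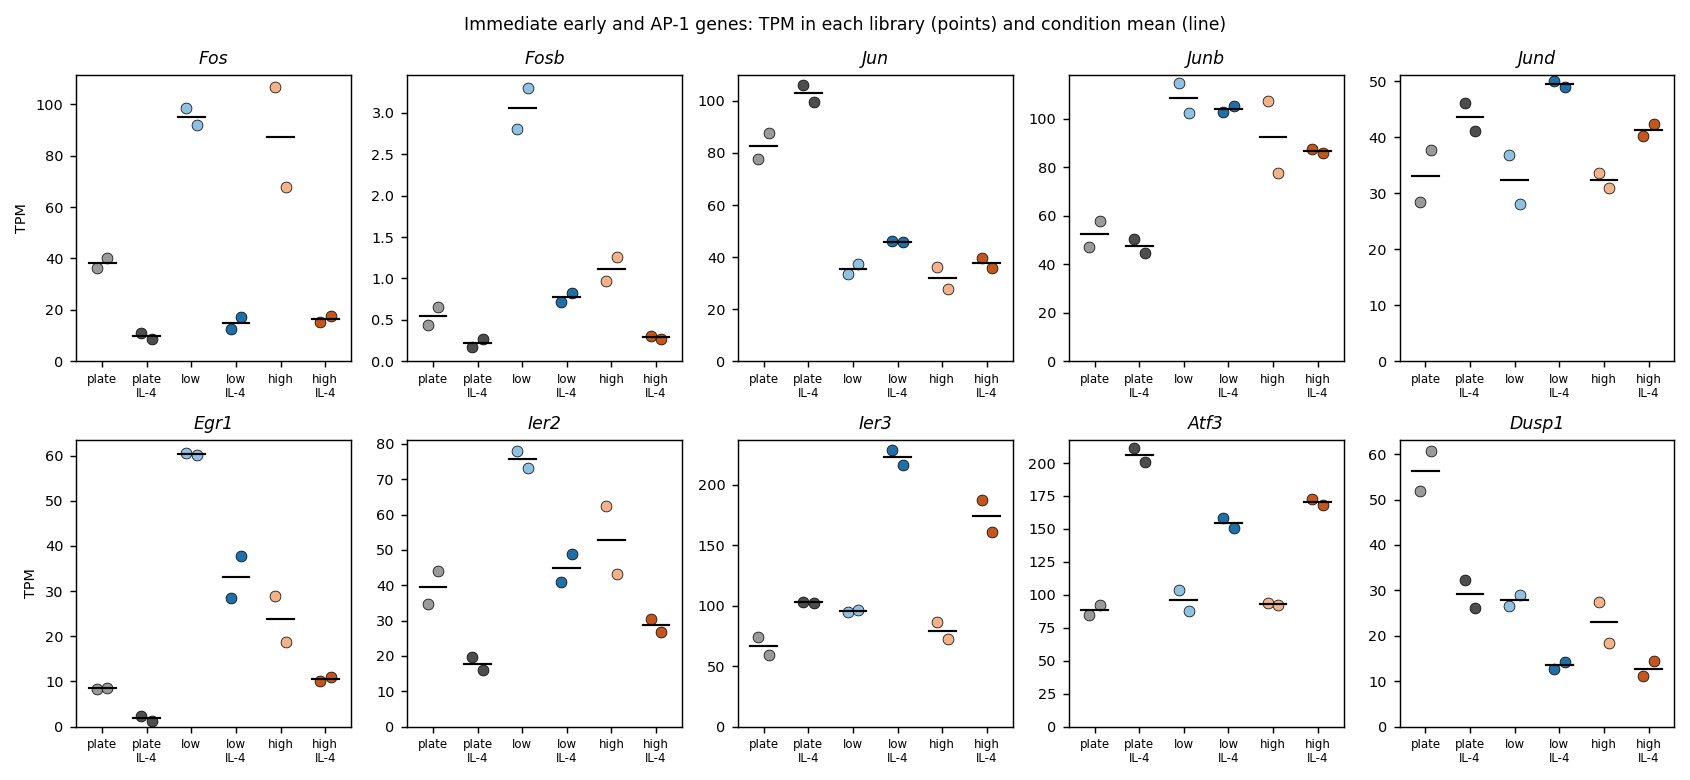
TPM of the 10 genes in each of the 12 libraries (points; lines are means of the 2 libraries of a condition; each panel has its own axis from 0; plate, TC plate; low and high, low- and high-collagen gels). Fosb, Egr1 and Ier2 are highest in untreated low-collagen gels, Fos is highest in the untreated gels of both kinds (67.9 to 107 TPM), Jun is higher on plates (77.5 to 106 TPM) than in gels (27.8 to 46.1 TPM), and Ier3 and Atf3 are highest with IL-4.

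IL-4 lowered Fos, Egr1, Ier2 and Dusp1 and raised Ier3, Atf3 and Jund in all 3 cultures, and with both libraries of each condition Junb had no call. Calls were made where limma on log2(TPM + 1) gave an adjusted p under 0.2 (Benjamini-Hochberg, over all genes tested), and fold changes on this scale understate the change of genes with few transcripts. On TC plates 8 of the 9 genes tested were called, 4 higher and 4 lower, where 38.8% of all 11865 genes tested were called (14.7% higher and 24.0% lower). In low-collagen gels 8 of 9 were called, 4 lower and 4 higher, against 53.6% of 11852 genes (13.2% higher and 40.4% lower). In high-collagen gels 7 of 9 were called, 3 higher and 4 lower, against 34.3% (11.5% higher and 22.8% lower). Over these 9 genes the median was -0.14, -0.06 and -0.07 on the log2 scale in these 3 cultures, and over all genes it was -0.06, -0.19 and -0.10. Macrophage markers moved with IL-4 as well, their sum being 27980 to 28590 TPM on untreated plates and 17540 with IL-4, 43330 to 46130 and 30710 to 31910 in low-collagen gels, and 53820 to 53950 and 35730 to 37700 in high-collagen gels. Of the 8 markers 2 were called higher and 5 to 6 lower with IL-4 in each culture, and their part in the results was not tested.

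On the scale of log2(TPM + 1), Fos had the largest fall with IL-4 of these genes in both kinds of gel. On plates its fall was within 1 SE of that of Egr1. As a ratio of mean TPM, without the added 1, Egr1 fell further there, from 8.43 to 1.80 TPM against 38.2 to 9.87 for Fos. Fos fell by 1.86 on the log2 scale on plates (SE 0.21, adjusted p = 0.000154), by 2.61 in low-collagen gels (SE 0.217, adjusted p = 0.000122) and, in high-collagen gels, by 2.31 (SE 0.217, adjusted p = 0.000337). Its fall had rank 23 among 11852 genes, counted from the lowest fold change, in both kinds of gel. Egr1 fell by 1.77 on plates (SE 0.221, adjusted p = 0.000292), by 0.86 in low- and 1.09 in high-collagen gels (SE 0.202 each, adjusted p = 0.0158 and 0.0094). Ier2 fell by 1.10, 0.75 and 0.84 in the same order (adjusted p = 0.00177, 0.0138 and 0.0132) and Dusp1 by 0.93, 0.99 and 0.79 (adjusted p = 0.00614, 0.00788 and 0.0317). Each of these falls separated all treated from all untreated libraries of its culture. Without replicate 2 of the untreated high-collagen gels the log2 fold changes there were -2.64 for Fos, -1.385 for Egr1, -1.10 for Ier2 and -1.065 for Dusp1 (adjusted p = 0.000512, 0.0051, 0.00517 and 0.0143). In the fit with no minimum level, Fosb had log2 fold changes of -0.34 on plates, -1.195 in low- and -0.71 in high-collagen gels (adjusted p = 0.159, 0.00458 and 0.0411), and -0.61 in high-collagen gels without that library (adjusted p = 0.109).

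The rises were smaller than the fall of Fos. Ier3 rose by 0.62 on the log2 scale on plates (SE 0.117, adjusted p = 0.00383), 1.21 in low-collagen gels (SE 0.104, adjusted p = 0.000142) and 1.13 in high-collagen gels (SE 0.104, adjusted p = 0.000297). Atf3 rose by 1.21 on plates (SE 0.0809, adjusted p = 4.41e-06), 0.69 in low-collagen gels (SE 0.0849, adjusted p = 0.000826) and 0.87 in high-collagen gels (SE 0.0849, adjusted p = 0.000423). Ier3 and Atf3 therefore had their larger rise in different cultures. With replicate 2 of the untreated high-collagen gels left out, Ier3 and Atf3 rose there by 1.002 and 0.855 (adjusted p = 0.00261 and 0.00561). Jund rose by 0.40, 0.61 and 0.35 (adjusted p = 0.0846, 0.00915 and 0.107) and Jun by 0.32 on plates and 0.36 in low-collagen gels (adjusted p = 0.095 and 0.0701). In high-collagen gels the libraries of Jun overlapped (0.25, 95% confidence interval -0.058 to 0.548, adjusted p = 0.25). The log2 fold change of Junb was between -0.14 and -0.06 in the 3 cultures, with adjusted p of 0.551 or more and intervals that reached from -0.466 to 0.261 at their widest. Junb was called there when replicate 2 of the untreated high-collagen gels was left out (-0.31, adjusted p = 0.0981), and Jun was at 0.06 (adjusted p = 0.792). The calls of Jun and Jund rest on few libraries. Without replicate 1 of the untreated or of the IL-4-treated plates neither was called on plates (log2 fold changes down to 0.23 and 0.20), without replicate 1 of the untreated or replicate 2 of the IL-4-treated low-collagen gels Jun was not called there (down to 0.29), and Jund was not called in high-collagen gels without replicate 2 of the untreated or either of the IL-4-treated gels (down to 0.29).

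**Figure D3:**
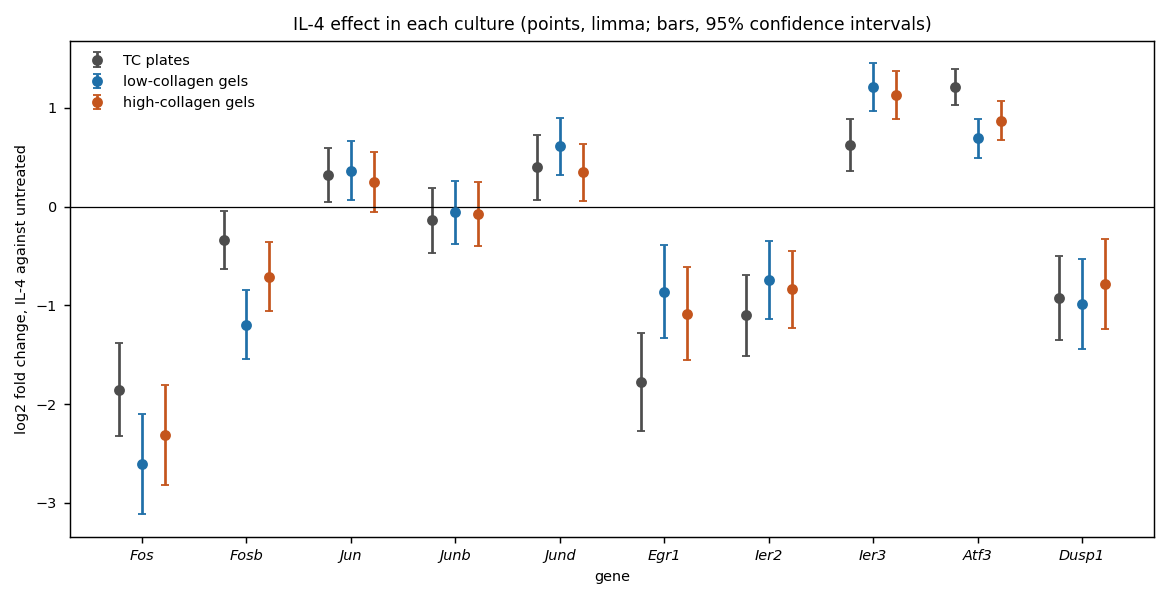
Log2 fold change of TPM + 1 with IL-4 (points; bars, 95% confidence intervals from limma) for each gene on TC plates (grey), in low-collagen gels (blue) and in high-collagen gels (orange). Fos is lowest in each culture (-1.86, -2.61 and -2.31), with Egr1 close to it on plates (-1.77). Ier3 and Atf3 lie above 0 in all 3, and Junb spans 0 in all 3. Fosb is from the fit with no minimum level, where its SE in gels is 0.143, against 0.231 with the minimum.

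Whether the IL-4 response itself differed between cultures was tested as an interaction. Between high- and low-collagen gels the interaction was called by limma in 0 of 9 genes, and 0 had an unadjusted p under 0.05, where 0.363% of all genes were called. The estimates ran from -0.26 (Jund) to 0.29 (Fos), and the 95% confidence intervals together reached from -0.888 (Egr1) to 1.007 (Fos), so differences of these sizes are not excluded. Fosb had 0.49 in the fit with no minimum level (interval -0.012 to 0.984, adjusted p = 0.63). Leaving out replicate 2 of the untreated high-collagen gels also gave 0 calls of 9, with Egr1 at -0.52 (adjusted p = 0.588). Between low-collagen gels and TC plates 4 of 9 were called against 28.0% of all genes, 2 higher (9.30%) and 2 lower (18.7%). The difference, low-collagen gels minus plates, was -0.75 for Fos (SE 0.296, adjusted p = 0.141) and -0.52 for Atf3 (SE 0.114, adjusted p = 0.0189), and it was 0.91 for Egr1 (SE 0.312, adjusted p = 0.0987) and 0.59 for Ier3 (SE 0.166, adjusted p = 0.0533). Fos thus fell further in low-collagen gels than on plates, Egr1 fell less, Ier3 rose further and Atf3 rose less. The call of Fos was lost under median-ratio rescaling of the libraries (-0.62), without a minimum level, and without any 1 of the 8 libraries compared other than replicate 2 of the IL-4-treated plates or low-collagen gels (-0.83 to -0.54). That of Egr1 was lost without replicate 2 of the IL-4-treated plates or low-collagen gels (0.65 and 0.71). Fosb had -0.86 in the fit with no minimum level (adjusted p = 0.0388). The interaction of high-collagen gels with plates was not tested.

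Other genes of the pathway were counted from fixed lists. Of 21 other immediate early regulators tested, 16 were called with IL-4 on plates (7 higher, 9 lower), 18 in low-collagen gels (5 higher, 13 lower) and 13 in high-collagen gels (6 higher, 7 lower). Over all genes, as above, 38.8%, 53.6% and 34.3% were called (14.7%, 13.2% and 11.5% higher, and 24.0%, 40.4% and 22.8% lower). Egr2, the paralogue of Egr1 that IL-4 is known to induce, was at 0.699 and 1.09 TPM on untreated plates and 41.3 and 41.2 with IL-4, 4.09 and 4.97 in untreated low-collagen gels and 74.3 and 95.6 with IL-4, and 0.820 and 0.473 in untreated high-collagen gels and 36.0 and 38.9 with IL-4. Its log2 fold changes of 4.49, 3.95 and 4.55 (adjusted p = 9.45e-08, 3.6e-06 and 3.3e-06) were opposite in sign to those of Egr1. Nr4a1, an orphan nuclear receptor induced with Fos and Egr1 by many stimuli, was lower with IL-4 in each culture. Its log2 fold changes were -0.895 on plates, -3.33 in low- and -2.48 in high-collagen gels (adjusted p = 0.041, 4.54e-05 and 0.000338). Klf4, a factor of alternative activation, rose by 2.29, 2.70 and 2.49 on plates and in low- and high-collagen gels (adjusted p = 1.49e-06, 4.58e-06 and 1.11e-05).

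Among MAPK phosphatases and feedback inhibitors, the list around Dusp1, IL-4 called 3 higher and 7 lower of 12 on plates, 1 higher and 6 lower of 11 in low-collagen gels, and 2 higher and 4 lower of 11 in high-collagen gels. These and the following counts stand against the same shares of all genes, 14.7%, 13.2% and 11.5% higher and 24.0%, 40.4% and 22.8% lower. Dusp4, a nuclear MAPK phosphatase, was the largest rise in each culture, by 1.95, 3.82 and 3.43 (adjusted p = 1.54e-06, 9.92e-07 and 2.45e-06). It was at 37.6 and 44.6 TPM on untreated plates and 161 and 162 with IL-4, and at 3.50 to 4.42 TPM in untreated gels and 51.3 to 66.4 with IL-4. Dusp5, a nuclear phosphatase specific for ERK, had log2 fold changes of -1.49, -1.89 and -1.35 (adjusted p = 0.00109, 0.001 and 0.00819), in the same direction as Dusp1. Among 12 other AP-1 subunits, 3 were called higher and 5 lower on plates, 3 and 3 in low-collagen gels, and 2 and 3 in high-collagen gels. Batf3, a leucine zipper partner of Jun proteins, rose most, by 1.68, 2.99 and 2.10 (adjusted p = 0.000575, 5.12e-05 and 0.000514). Of 20 upstream kinases and SRF cofactors, 3 were higher and 5 lower on plates, 1 and 10 in low-collagen gels, and 1 and 4 in high-collagen gels, which is 25%, 50% and 20% lower and so near the shares of all genes. Elk3, a partner of SRF, fell in each culture, by 0.93, 1.14 and 0.70 (adjusted p = 5.13e-05, 0.00018 and 0.00312). Heat shock genes, a stress response separate from AP-1, were called 7 higher and 0 lower of 11 on plates, 4 and 1 of 12 in low-collagen gels, and 5 and 2 of 12 in high-collagen gels. Without replicate 2 of the untreated high-collagen gels, 6 higher and 9 lower of the 21 immediate early regulators, 1 and 4 of the 11 phosphatases and inhibitors, 1 and 2 of the 12 AP-1 subunits, 1 and 4 of the 20 kinases and cofactors and 4 and 1 of the 12 heat shock genes were called there, on a background of 9.81% higher and 16% lower.

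TPM sum to the same total in each library, so a rise of abundant genes lowers the rest. With each library rescaled by its median ratio, the medians of all genes in the IL-4 comparisons moved from -0.06, -0.19 and -0.10 to between -0.001 and 0.001, and the share of calls that were higher went from 38% to 49.3% on plates, 24.7% to 54.1% in low-collagen gels and 33.6% to 53.7% in high-collagen gels. No called direction of the 10 genes turned under this rescaling, and Jun in high-collagen gels became a call.

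Most of the 9 genes tested were called between gels and plates, as were most of all genes. Without IL-4, 7 of 9 were called between low-collagen gels and plates, 5 higher and 2 lower in gels, where 72.8% of all genes were called (28.5% higher, 44.3% lower). The same numbers were called for high-collagen gels, where 73.5% of all genes were (28.0% higher, 45.5% lower). With IL-4, 8 of 9 were called for each kind of gel, 5 higher and 3 lower, against 75.1% for low-collagen gels (22.8% higher, 52.2% lower) and 74.6% for high-collagen gels (26.5% higher, 48.1% lower). The number called was thus near the background, and the low- and high-collagen comparisons share their plate libraries. The 5 higher genes were Fos, Junb, Egr1, Ier2 and Ier3 each time. Jun and Dusp1 were lower each time, Atf3 was lower with IL-4, and Jund was never called (adjusted p of 0.302 or more).

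Egr1 had the largest difference. Without IL-4 it was higher by 2.70 on the log2 scale in low-collagen gels (SE 0.221, adjusted p = 4.6e-06) and by 1.37 in high-collagen gels (SE 0.221, adjusted p = 0.000417), and with IL-4 by 3.61 and 2.06 (adjusted p = 1.02e-06 and 2.78e-05). Fos was higher by 1.30 in low-collagen gels and 1.14 in high-collagen gels without IL-4 (SE 0.21, adjusted p = 0.000441 and 0.000982) and by 0.55 and 0.68 with IL-4 (adjusted p = 0.0448 and 0.0173). The call of Fos in low-collagen gels with IL-4 was lost without replicate 2 of either arm (log2 fold change down to 0.34). Junb was higher by 1.04 and 0.79 without IL-4 and by 1.12 and 0.86 with it (adjusted p = 0.000176, 0.000983, 0.000106 and 0.000585). Jun was lower by a log2 fold change of -1.19, -1.35, -1.15 and -1.42 in the same order (adjusted p = 2.02e-05, 7.88e-06, 2.82e-05 and 6.4e-06). Jun and Junb thus differed in opposite directions in all 4 comparisons. When replicate 2 of the untreated high-collagen gels was left out, those gels had log2 fold changes against plates of 1.669 for Egr1, 1.46 for Fos, 1.02 for Junb and -1.165 for Jun (adjusted p = 0.000327, 0.000291, 0.000218 and 4.65e-05).

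Ier2 was higher by 0.93 in untreated low-collagen gels (adjusted p = 0.0015) and by 1.29 and 0.66 in low- and high-collagen gels with IL-4 (adjusted p = 0.000181 and 0.0098). Ier3 was higher by 0.52 in untreated low-collagen gels (adjusted p = 0.00356) and by 1.11 and 0.75 with IL-4 (adjusted p = 2.82e-05 and 0.00035). In untreated high-collagen gels the libraries of Ier2 and Ier3 overlapped those of the plates (0.40 and 0.25, adjusted p = 0.0829 and 0.0981). Without replicate 2 of those gels the values were 0.66 and 0.37 (adjusted p = 0.0135 and 0.0434), and without replicate 1 neither was called (0.14 and 0.12), nor was Ier2 without replicate 1 (0.23) or Ier3 without replicate 2 (0.08) of the untreated plates. Dusp1 had log2 fold changes of -0.99 and -1.28 without IL-4 and -1.05 and -1.14 with it (adjusted p = 0.00135, 0.000245, 0.000898 and 0.00053), and -1.003 in untreated high-collagen gels without replicate 2 (adjusted p = 0.0018). Atf3 had -0.41 and -0.27 with IL-4 (adjusted p = 0.00145 and 0.0143), which became -0.10 and -0.04 with no call after median-ratio rescaling. Fosb, in a fit with no minimum level, had 1.40 and 0.45 without IL-4 (adjusted p = 7.65e-05 and 0.0259) and 0.54 and 0.08 with it (adjusted p = 0.0115 and 0.732).

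**Figure D4:**
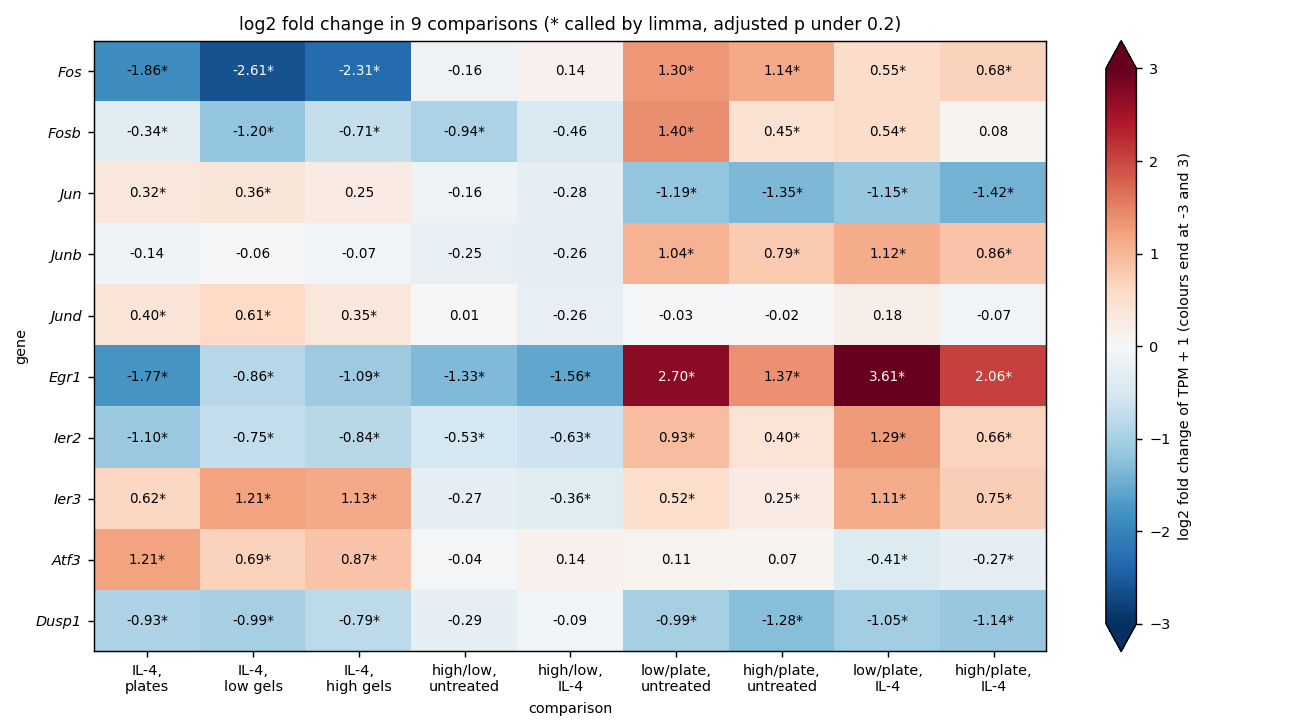
Log2 fold change of TPM + 1 of each gene (rows) in the 9 comparisons (columns), with stars where limma called it at an adjusted p under 0.2. Fosb is from the fit with no minimum level. Jun and Junb have opposite signs in all 4 comparisons of gels with plates (for example -1.19 and 1.04), and Egr1 reaches 3.61 in low-collagen gels against plates with IL-4.

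Other measures moved with the gels, and their part in these differences was not tested. The share of TPM from mitochondrially encoded genes was 5.22% to 5.86% on plates and 3.31% to 4.16% in gels, and that from ribosomal protein genes 8.20% to 9.75% and 10.1% to 12.6%. The 10 neutrophil markers summed to 6.32 to 11.4 TPM on plates and 16.0 to 36.3 TPM in gels. That sum came mostly from S100a8 and S100a9, and Ly6g was listed at 0 in all 12 libraries. Over all genes, 44.3% to 52.2% were called lower and 22.8% to 28.5% higher in the 4 comparisons of gels with plates. Of 11 heat shock genes, 9 were lower and 2 higher in each of these comparisons. The 2 higher were Hspa1a and Hspa1b, the inducible HSP70 genes, whose log2 fold changes in untreated low-collagen gels were 2.13 and 2.20 (adjusted p = 8.23e-05 and 3.16e-05). They are near-identical copies whose reads could be divided between them with error. Hspa1a was at 1.46 and 2.16 TPM on untreated plates and at 9.43 and 13.2 in untreated low-collagen gels. Hsp90aa1 and Hspd1, abundant chaperones, were lower by a log2 fold change of -1.74 and -1.66 in the same comparison (adjusted p = 5.64e-06 and 2.82e-07).

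The pathway lists also differed between gels and plates. Of 21 other immediate early regulators, 12 were called higher and 6 lower in untreated low-collagen gels, and 9 and 9 in untreated high-collagen gels. With IL-4 the numbers were 10 and 6 in low-collagen gels and 8 and 8 in high-collagen gels. Leaving out replicate 2 of the untreated high-collagen gels, the counts for those gels were also 9 and 9. The background over all genes in these 4 comparisons was 28.5%, 28.0%, 22.8% and 26.5% higher and 44.3%, 45.5%, 52.2% and 48.1% lower. Nr4a1 was at 3.14 and 4.20 TPM on untreated plates, 25.1 and 21.6 in untreated low-collagen gels and 13.5 and 8.76 in untreated high-collagen gels, with log2 fold changes of 2.39 and 1.36 (adjusted p = 4.44e-05 and 0.0017). Btg2, an antiproliferative immediate early gene, was higher by 1.75 in untreated low-collagen gels (adjusted p = 3.18e-05). Myc, the growth-promoting immediate early factor, went the other way, at 48.7 and 50.7 TPM on untreated plates, 11.4 and 12.1 in low-collagen gels and 7.94 and 7.83 in high-collagen gels (log2 fold changes -1.99 and -2.51, adjusted p = 4.15e-08 and 1.45e-08). Plk3, a stress-responsive kinase, had -1.799 and -2.11 (adjusted p = 1.62e-05 and 5.08e-06).

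Of the 12 MAPK phosphatases and feedback inhibitors tested, 2 were higher and 8 lower in untreated low-collagen gels, and 0 and 9 in untreated high-collagen gels. With IL-4 the numbers were 1 and 11 in low-collagen gels and 1 and 10 in high-collagen gels, and without replicate 2 of the untreated high-collagen gels they were 1 and 8 there. Dusp4 had the lowest values, -3.18 and -3.09 without IL-4 (adjusted p = 3.44e-08 and 3.12e-08), followed by Spred2, an inhibitor of the Ras pathway, with -2.10 and -1.75 (adjusted p = 2.81e-06 and 8.5e-06). Of 20 upstream kinases and SRF cofactors, 14 were lower and 3 higher in untreated gels of either kind. Among them Map2k3, a kinase that activates p38, had -0.83 and -0.90 (adjusted p = 9.37e-06 and 4.78e-06) and Mkl2, an actin-regulated cofactor of SRF, -0.82 and -0.84 (adjusted p = 7.29e-05 and 5.72e-05). These shares lie on a background of 44.3% and 45.5% of all genes lower, and without replicate 2 of the untreated high-collagen gels 13 of the 20 were lower there. Of 12 other AP-1 subunits, 5 were higher and 5 lower in untreated low-collagen gels and 4 and 6 in untreated high-collagen gels, with Maf, a macrophage regulator, higher by 1.16 and 0.89 (adjusted p = 2.33e-06 and 1.24e-05). After median-ratio rescaling the medians of all genes, -0.13, -0.16, -0.28 and -0.20 in the 4 comparisons, became 0.003 or less in size, and the share of calls that were higher in gels went from 39.2%, 38%, 30.4% and 35.6% to 49.7%, 49.3%, 49.9% and 49.8%.

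High-collagen gels held less Egr1 than low-collagen gels, with and without IL-4. Without IL-4 its log2 fold change was -1.33 (SE 0.202, adjusted p = 0.0497) and with IL-4 -1.56 (SE 0.202, adjusted p = 0.0121), or 0.397 and 0.340 times the level in low-collagen gels on the scale of TPM + 1. It remained called without replicate 2 of the untreated high-collagen gels, with -1.03 (adjusted p = 0.147). Ier2 was also lower, with log2 fold changes of -0.53 without IL-4 (SE 0.169, adjusted p = 0.195) and -0.63 with IL-4 (SE 0.169, adjusted p = 0.0799). Ier3 was lower with IL-4 (-0.36, SE 0.104, adjusted p = 0.0956). In all, 2 of 9 genes were called without IL-4, where 8.02% of all genes were called (3.23% higher and 4.79% lower), and 3 of 9 with IL-4, where 21.1% were called (14.1% higher and 6.99% lower). Each of these calls was lower in high-collagen gels. The median log2 fold change of the 9 was -0.25 without and -0.26 with IL-4, and that of all genes -0.02 and 0.06. Fosb, in the fit with no minimum level, had -0.94 without IL-4 (SE 0.143, adjusted p = 0.104) and -0.46 with it (adjusted p = 0.211).

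Markers of other cells and of macrophages moved in the same comparisons, and their part in these differences was not tested. S100a8, a neutrophil and monocyte gene, had a log2 fold change of -0.84 in untreated high- against low-collagen gels (adjusted p = 0.146) and of -0.79 in those given IL-4 (adjusted p = 0.101). The 10 neutrophil markers summed to 25.9 to 36.3 TPM in low- and 17.1 to 20.6 TPM in high-collagen gels without IL-4, and to 17.5 to 25.0 and 16.0 to 17.3 TPM with it. Of the 8 macrophage markers 4 were called higher and 1 lower without IL-4, and 5 and 1 with it.

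Several of these calls rest on single libraries. Without replicate 2 of the untreated high-collagen gels, or replicate 2 of the untreated low-collagen gels, Egr1 alone of the 9 was called without IL-4, and Ier2 was then at -0.27 or -0.58. In the former case only 0.415% of all genes were called higher and 0.753% lower, and the median of the 9 genes was -0.01. Ier2 was also not called without replicate 1 of the untreated low-collagen gels. Fosb had -1.04 with no minimum level and without replicate 2 of the untreated high-collagen gels (adjusted p = 0.0947). With IL-4, Egr1 alone was called without replicate 2 of either kind of gel, when Ier2 was at -0.50 or -0.54 and Ier3 at -0.40 or -0.25, and Ier3 was lost too without replicate 1 of the low-collagen gels. After median-ratio rescaling the medians of all genes became -0.001 and -0.011, and the share of calls that were higher in high-collagen gels went from 40.3% to 50.8% without IL-4 and from 66.9% to 45.7% with it. Ier2 was then no longer called without IL-4 (adjusted p = 0.265).

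Fos was not called between the gels. Its log2 fold change in high- against low-collagen gels was -0.16 without IL-4 (95% confidence interval -0.664 to 0.345, adjusted p = 0.777) and 0.14 with IL-4 (interval -0.369 to 0.639, adjusted p = 0.753). Without IL-4 it was -0.48 when replicate 1 of the high-collagen gels was left out and 0.16 when replicate 2 was. Jun and Junb had -0.16 and -0.25 without IL-4 (adjusted p = 0.618 and 0.443) and -0.28 and -0.26 with it (adjusted p = 0.262 and 0.31). Jund, Atf3 and Dusp1 were not called in either comparison, with estimates between -0.29 and 0.14.

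**Figure D5:**
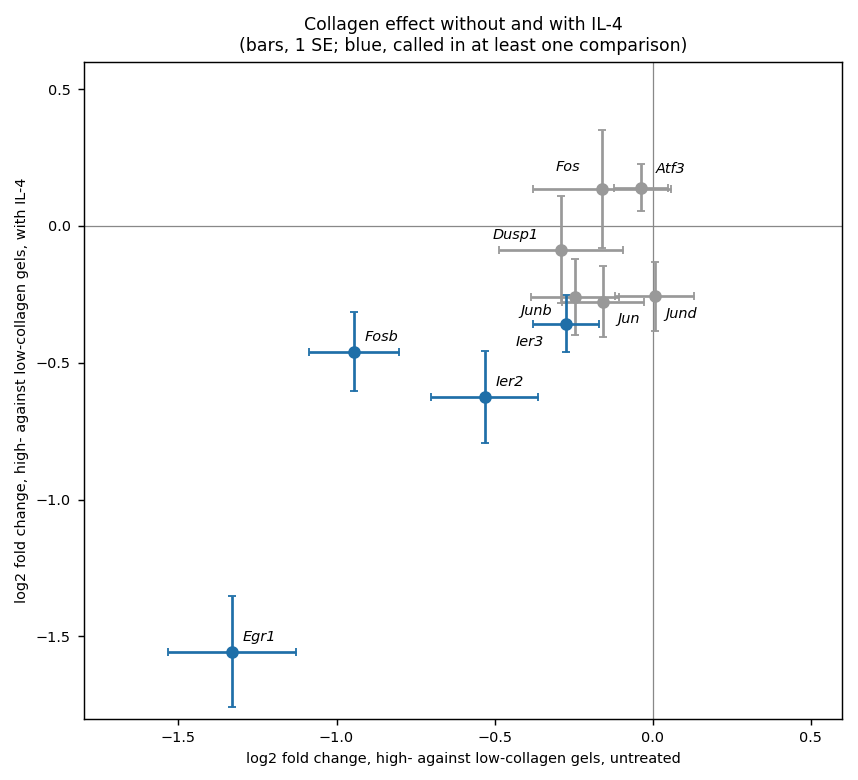
Log2 fold change of TPM + 1 in high- against low-collagen gels without IL-4 (x axis) and with IL-4 (y axis) for the 10 genes (bars, 1 SE from limma; blue, called in at least one of the comparisons). Egr1 lies farthest from 0 on both axes (-1.33 and -1.56), while Fos and Atf3 lie within 0.16 of 0 on both. Fosb is from the fit with no minimum level, where its SE is 0.143, against 0.231 with the minimum.

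Among 21 other immediate early regulators, 0 were called higher and 9 lower in high- than in low-collagen gels without IL-4, and 1 higher and 7 lower with IL-4, on the same background of 4.79% and 6.99% of all genes called lower. Without replicate 2 of the untreated high-collagen gels 3 were called lower without IL-4 (background 0.753%), namely Egr2, Egr3 and Klf10. Egr2 was lower by a log2 fold change of -1.75 without IL-4 and -1.15 with IL-4 (adjusted p = 0.0102 and 0.0162). Egr3, singled out after its values were seen since its mean of 2.00 TPM lies under the level set for naming, was at 8.50 and 7.13 TPM in untreated low-collagen gels and at 0.419 and 0.819 in untreated high-collagen gels. Its log2 fold changes were -2.45 without and -1.28 with IL-4 (adjusted p = 0.00981 and 0.026), and Egr1, Egr2 and Egr3 were thus each lower in high-collagen gels in both comparisons. Klf10, a zinc finger factor induced by TGF-β, had log2 fold changes of -0.74 without and -0.28 with IL-4 (adjusted p = 0.04 and 0.157), and Myc had -0.52 and -0.64 (adjusted p = 0.0624 and 0.0151). Nr4a1 was lower without IL-4 (-1.03, adjusted p = 0.0979) and had -0.18 with it (adjusted p = 0.694). With that replicate left out the values without IL-4 were -1.598 for Egr2, -2.63 for Egr3 and -0.63 for Klf10 (adjusted p = 0.059, 0.0225 and 0.154), while Nr4a1 and Myc were no longer called (-0.74 and -0.51, adjusted p = 0.32 and 0.223). Upstream kinases and SRF cofactors gave 0 calls of 20 without IL-4, with 1 at an unadjusted p under 0.05 by limma, and 3 higher and 0 lower with IL-4. The MAPK phosphatases and feedback inhibitors gave 0 higher and 1 lower of 11 without IL-4 (Dusp5, -0.90, adjusted p = 0.141) and 3 higher and 1 lower with IL-4. Other AP-1 subunits gave 1 higher and 0 lower of 12 without IL-4 and 1 and 2 with it. Heat shock genes gave 0 higher and 2 lower of 12 without IL-4, among them Hspa1a with -0.86 (adjusted p = 0.128), and 1 and 2 with it. The calls of the phosphatase, AP-1 and heat shock lists without IL-4 were lost without replicate 2 of the untreated high-collagen gels.

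The genes with the pattern nearest to that of Fos and of Egr1 were found from the 6 condition means of log2(TPM + 1), each gene centred on its own mean, among 11864 genes, by the root mean square of the differences. Nearest to Fos were Fcrl1 (0.247), Mex3b (0.304), P2ry13 (0.318), Fpr2 (0.325) and Bank1 (0.326). With a pseudocount of 0.1 they were P2ry13, Nfkbiz, Bank1, Dpep3 and Slc40a1, so P2ry13 and Bank1 were the names found on both scales. P2ry13, a receptor for ADP, had condition means of 9.68 TPM on untreated plates, 21.3 in untreated low-collagen gels and 20.2 in untreated high-collagen gels, and of 3.31, 4.72 and 5.73 with IL-4. Nearest to Egr1 were Gbp2 (0.527), Gbp5 (0.538), Chp2 (0.548), Btg2 (0.562) and Ifi209 (0.571), all farther from Egr1 than the 5 genes were from Fos. Gbp5, Chp2 and Gbp2 were also among the 5 nearest with a pseudocount of 0.1. Among the 9 of the 10 genes that were ranked, Fosb being under the minimum, Ier2 was the nearest to both Fos (0.757, rank 185) and Egr1 (0.865, rank 127), Egr1 ranked 2997 for Fos, and Jun ranked 11020 for Fos and 10929 for Egr1. These likenesses are over 6 condition means and carry no test.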

How the data were processed

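RNA-seq libraries of BMDMs from 6 conditions with 2 libraries each were analysed. RNA from the gels and plates was purified on columns, made into stranded mRNA libraries and sequenced as paired ends. The authors quantified transcripts with kallisto 0.46.1 (submitters' processing notes) on the Ensembl GRCm38 transcriptome and deposited a single table of TPM by gene and library. How transcripts were joined into genes is not given in the sources used here. The table has 34456 lines, of which 129 repeated lines were collapsed (Jund is listed under 2 identifiers with identical values and was counted once), and 0 sample columns were left unmapped. TPM keep no depth, so no interval for counting error is given.

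Tests ran on log2(TPM + 1) in limma 3.58.1 (R 4.3.3). Each condition had its own mean, variances were moderated along the trend with the mean, and p-values were adjusted by Benjamini-Hochberg over the genes whose mean was at least 1 TPM in the libraries fitted. Gel comparisons used the 8 gel libraries and comparisons with plates all 12. Calls took an adjusted p under 0.2, the threshold of the study, which used Sleuth, so up to 20% of calls are expected to be false. For 2 libraries against 2 the smallest exact permutation p is 0.33. The fit was tested on simulated data. Other software was matplotlib 3.10.9, numpy 2.4.6, pandas 2.3.3 and python 3.11.15.

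The 10 genes, the gene lists and the tests were chosen with earlier results of these data known. Beside the 10 genes, the text names from each list up to 4 genes per comparison, those called with the largest fold change at a mean of at least 5 TPM, and the 5 genes nearest to Fos and to Egr1. Same-numbered libraries of different conditions did not deviate together (1 of 15 correlations of deviations over 0.1, from -0.123 to 0.109). The numbers were therefore not used as pairs, although a shared mouse or culture is not excluded. The alternatives were a pseudocount of 0.1, no minimum level, median-ratio rescaling, no mean-variance trend, an adjusted p under 0.05, the replicate number as a block, other sets of libraries in the fit, and each library left out in turn. Fosb with no minimum level and without replicate 2 of the untreated high-collagen gels was added after seeing the data.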

Additional observations from a re-analysis of the deposited data

Results flagged for a closer look

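The response to IL-4 differed between low-collagen gels and TC plates, by a test of the difference itself (the interaction in limma), for 4 of the 9 genes tested, where 28.0% of all genes were called. The response in low-collagen gels minus that on plates, on the log2 scale, was -0.754 for Fos, 0.912 for Egr1, 0.587 for Ier3 and -0.523 for Atf3. Beside these, Fos fell in every culture and Egr1 too, so the differences concern the size of the fall, and Ier3 and Atf3 rose in every culture. Low-collagen gels and plates also differed in how they were harvested, and that part cannot be told apart from the culture. The call of Fos was lost under median-ratio rescaling, with no minimum level and without each library compared other than replicate 2 of the IL-4-treated plates or low-collagen gels, and that of Egr1 without replicate 2 of the IL-4-treated plates or low-collagen gels.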

How the results depend on the processing

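No called direction of the 10 genes turned among 1255 values recomputed for 104 single-gene results. In 1176 the side of the threshold was the same, in 61 a call was lost and in 18 one was gained. The numbers of calls that follow include Fosb from the fit with the minimum level, which the counts above leave out. Fosb passed that minimum only through the untreated gels. Without Fosb, the 3 calls between high- and low-collagen gels without IL-4 are 2, so part of the drops from 3 concerns Fosb. The number of genes called between high- and low-collagen gels without IL-4 went from 3 to 1 with a pseudocount of 0.1, to 1 at an adjusted p under 0.05 and to 1 with the compared libraries alone, and with each library left out it ranged from 1 to 3. With IL-4 it went from 3 to 1 at an adjusted p under 0.05 and to 6 with the compared libraries alone (Jun, Junb and Jund being added), and from 1 to 3 with each library left out. For the interaction of low-collagen gels with plates it went from 4 to 1 at an adjusted p under 0.05, Atf3 remaining. The cause was not tested. In the other comparisons each alternative stayed within 1.5 times the number called. Egr1 was called between the gels under each alternative run. The lone library left when a replicate is dropped is assumed to vary like the other conditions.

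With the replicate number as a block and Fosb counted, high- against low-collagen gels without IL-4 gave 2 calls in place of 3, Ier2 being lost. No other number of calls among the 10 genes changed. The numbers share no stated origin, so whether such a block is fitting is unknown. TPM hold no depth, which leaves the precision of the lowest values, those of Fosb, unknown.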
